A study of Mus musculus with 15 samples.

Results

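Myo7a (ENSMUSG00000030761) and A630091E08Rik (ENSMUSG00000055446), both on mouse chromosome 7, are described here across 15 RNA-seq libraries of T helper 2 (Th2) cells with and without the ubiquitin ligase subunit ASB2. They were chosen from the data: on counts scaled by library size, both were lower in every knockout than in every control library, with and without stimulation, and both have few counts. They are 2 of 56748 genes in the tables and 2 of the 15619 that had enough counts to be tested. Both passed the filter on low counts, with at least 42 counts in each library.

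The conditional knockout (cKO) cells were VEC-Cre;Asb2fl/fl and the control cells Asb2fl/fl, so both genotypes carried floxed Asb2 alleles and only the cKO cells carried a Cre transgene, driven by the VE-cadherin promoter. That promoter works in endothelial cells and in early blood-forming precursors, so recombination is not limited to T cells. The labels list no Cre in control cells, and an effect of the transgene cannot be told apart from one of the deletion. Naive CD4+ T cells came from spleens of female mice; the labels give no age and do not say which libraries came from separate animals. They were driven towards the Th2 fate for 3 days with interleukin 2, interleukin 4, anti-CD28 and anti-interferon gamma on plates coated with anti-CD3ε, and kept for 3 more days in both interleukins alone. Stimulated (STIM) cells were restimulated at day 5 for 24 h with coated anti-CD3ε (3 µg/ml) and soluble anti-CD28 (2 µg/ml), and non-stimulated (NS) cells were not. There were 3 NS cKO, 3 NS control, 4 STIM cKO and 5 STIM control libraries.

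MYO7A is an unconventional myosin, an actin-based motor whose tail binds membranes and adaptor proteins. It is best known from the stereocilia of inner ear hair cells and from the retinal pigment epithelium, and its loss causes deafness and Usher syndrome. Unconventional myosins in T cells are better known for membrane tension and the cell cortex, with the class I member Myo1g as the leukocyte example. A630091E08Rik is a long noncoding RNA known by its cDNA clone name, for which no function is given in the annotation used here. ASB2 is the substrate receptor of an E3 ubiquitin ligase whose known targets include the actin crosslinkers filamin A and filamin B.

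In the GENCODE annotation both genes lie on the minus strand of chromosome 7, with 13 annotated genes between them, and neither overlaps another gene. Asb2 lies on chromosome 12. Myo7a has 13 annotated transcripts of 347 to 7506 bases, 6 of them protein coding, and the longest has 49 exons. A630091E08Rik has 1 transcript of 828 bases in 2 exons, annotated as a lincRNA. Of the 2 genes, 1 had an entry in the RefSeq promoter table (GRCm38.p6), which lists 2 start sites for Myo7a. The 250 bases before each start are shown because Myo7a has several transcripts and start sites. As described below, its implied length varied between libraries, and a link of that to the start sites or these sequences was not tested. Capitals mark matches to the E-box letters CANNTG. The first window is chr7:98119494-98119743 and the second chr7:98109249-98109498, both read on the minus strand from 5′ to 3′.
Myo7a start site 1: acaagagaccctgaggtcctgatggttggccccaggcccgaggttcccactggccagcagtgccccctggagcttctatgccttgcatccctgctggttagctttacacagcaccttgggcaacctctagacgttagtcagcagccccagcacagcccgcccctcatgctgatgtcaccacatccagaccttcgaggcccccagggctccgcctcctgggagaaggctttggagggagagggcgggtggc
Myo7a start site 2: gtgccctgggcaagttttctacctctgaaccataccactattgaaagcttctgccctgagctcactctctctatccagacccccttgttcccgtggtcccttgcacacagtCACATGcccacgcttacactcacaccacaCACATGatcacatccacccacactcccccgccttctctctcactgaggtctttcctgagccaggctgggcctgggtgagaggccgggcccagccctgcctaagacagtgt
The first window was 63.2% G or C with 6 CpG, and the second 57.6% with 4 CpG, beside medians of 52.4% and 6 over 32851 promoters. Searched on both strands, neither held the AP-1 letters TGANTCA, the GATA letters AGATAA or the NFAT letters TGGAAA, which 6.75%, 9.99% and 18.6% of promoters held. The E-box letters were absent from the first window and occurred at positions 112 and 141 of the second, and 66.2% of promoters held them. These motifs do not overlap each other in these windows.

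Library totals were 17.1 to 24.2 M estimated counts. Stimulation separated the libraries on the first principal component (71.2% of the variance). STIM cKO replicate 3 and NS control replicate 3 had the highest scores on the second (21.6 and 19.4; 4.90% of the variance), and the mitochondrial share was 9.43% in STIM cKO replicate 3, against 4.36% to 6.24% elsewhere. All 8 CD4 T cell and 7 Th2 markers were tested, with summed levels of 2179 to 2652 CPM (counts scaled by library size) over cKO and 2046 to 2820 CPM over control libraries for the first list and 911 to 4639 CPM over cKO and 1062 to 4479 CPM over control libraries for the second. The 6 markers of NK and CD8 T cells summed to 62.7 to 397 CPM in cKO and 113 to 470 CPM in control libraries. Most of this was Gzma, with group means of 114 to 244 CPM, while the others had group means of at most 9.25 CPM. The 6 endothelial markers, nearly all Pecam1, summed to 44.7 to 197 CPM in cKO and 44.4 to 191 CPM in control libraries. Markers of B cells, macrophages, dendritic cells, mast cells and erythroid cells summed to at most 20.1 CPM a list in any cKO and 22.8 CPM in any control library. Whether cells of these other types were present, or had a part in the results below, was not tested. Cdh5, the gene of VE-cadherin, had at most 4 counts in any library, and Emcn, Lyz2, Siglech, Hbb-bs and Hba-a1 were at 0 in all 15. Asb2, the targeted gene, averaged 19.2 ± 5.62 CPM in NS cKO and 36.7 ± 12.2 CPM in NS control libraries (SD, n = 3 each), and 9.49 ± 0.11 CPM in STIM cKO (n = 4) against 33.5 ± 2.72 CPM in STIM control libraries (n = 5). It was lower, and not absent, in the cKO libraries; counts cover the whole gene, and its floxed exons are not named in the labels.

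Myo7a was lower in cKO cells in both conditions. It had 4.33, 3.54 and 3.81 CPM in NS cKO libraries, against 5.83, 5.94 and 5.45 CPM in NS control libraries. The 3 cKO values lay below the lowest control value, with 4.33 and 5.45 CPM as the nearest pair. With stimulation it had 3.26, 4.43, 4.13 and 4.79 CPM in cKO libraries, against 7.87, 6.12, 7.30, 6.69 and 6.59 CPM in control libraries. The nearest pair was 4.79 CPM in a cKO library and 6.12 CPM in a control library. The cKO mean was 67.8% of the control mean in NS and 60.01% in STIM libraries, and the fitted log2 fold changes were -0.56 ± 0.17 (SE) and -0.74 ± 0.14. These are shares of all counts in a bulk culture, in which fewer cells with the transcript and less transcript per cell cannot be told apart.

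A630091E08Rik was also lower in cKO cells, by less without stimulation. NS cKO libraries had 5.85, 6.39 and 6.08 CPM, against 7.28, 7.49 and 8.09 CPM in NS control libraries. The groups were separated by 0.892 CPM, but on the unscaled counts by only 2 counts (134 in a cKO and 136 in a control library). STIM cKO libraries had 2.48, 3.24, 2.75 and 3.71 CPM, against 4.73, 5.11, 5.8, 4.91 and 5.26 CPM in STIM control libraries. The highest cKO value, in replicate 4, and the lowest control value, in replicate 1, were 1.02 CPM apart. The cKO mean was 80.1% of the control mean in NS and 59.0% in STIM libraries, with log2 fold changes of -0.32 ± 0.16 and -0.76 ± 0.14 (SE).

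**Figure D1:**
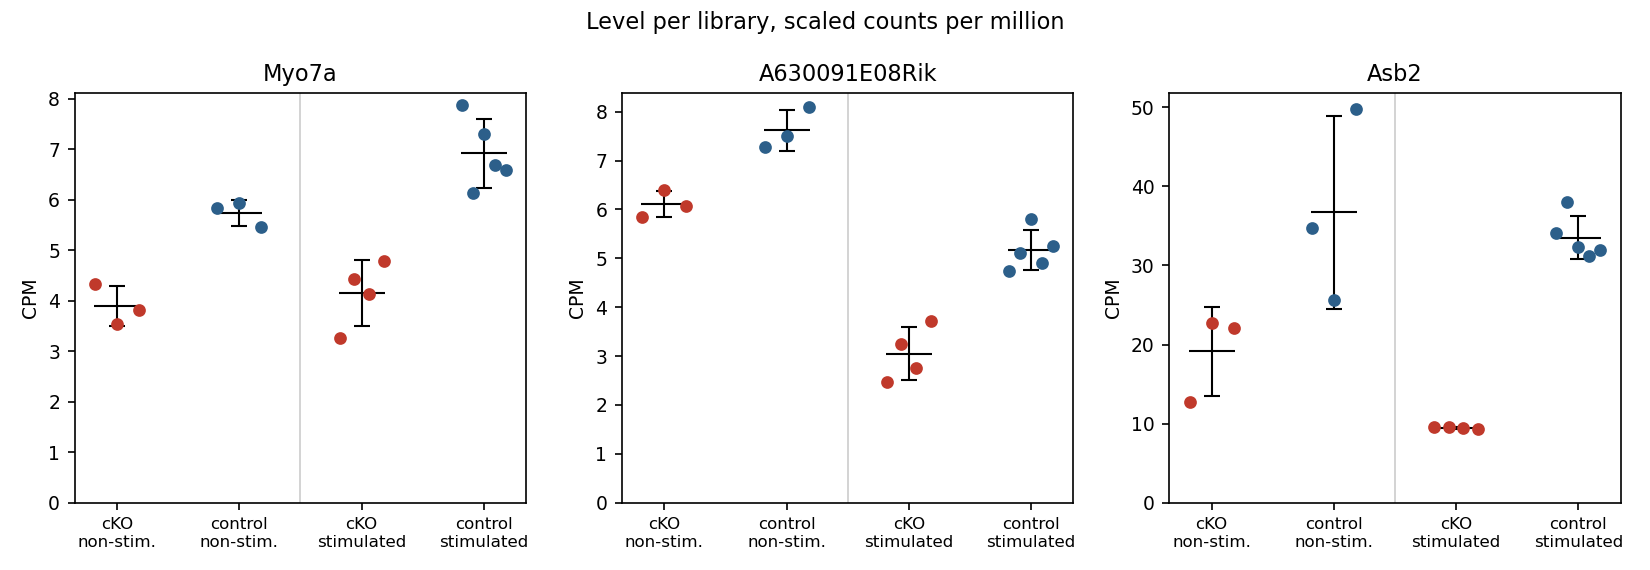
Level in CPM (y axis) of Myo7a, A630091E08Rik and the targeted gene Asb2 in each library (points), by genotype and condition, with the group mean and SD (black bars). In all 3 panels every cKO point lies below every control point of the same condition; the gap is narrowest for A630091E08Rik in NS libraries (6.39 against 7.28 CPM).

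Without STIM cKO replicate 3 and NS control replicate 3 together, the separation remained for both genes in both conditions. Separated groups cannot come to overlap by losing libraries, apart from small changes in scaling, so the rule that chose the genes fixed this outcome. The log2 fold changes of Myo7a were then -0.60 ± 0.19 in NS and -0.74 ± 0.16 in STIM libraries (SE). Those of A630091E08Rik were -0.28 ± 0.18 and -0.72 ± 0.15. Leaving out these 2 libraries was chosen after seeing the data.

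Because this separation is what chose the genes, the p-values printed for it here and in the next paragraph describe the rule and support nothing. Complete separation of 3 from 3 libraries gives the smallest two-sided exact permutation p that the design allows, 0.1, whatever the size of the gap, and 4 against 5 cannot go below 0.00794; both genes had those values (exact permutation test on mean log2 CPM). The background of the rule was counted over all tested genes. In NS libraries 545 genes (3.49%) were lower in every cKO than in every control library, and 683 (4.37%) were higher. In STIM libraries 55 (0.352%) were lower and 48 (0.307%) higher. In both conditions 3 genes (0.0192%) were lower, namely Asb2, Myo7a and A630091E08Rik, and 7 (0.0448%) were higher. Leaving out any 1 library gave 3 to 7 genes lower in both conditions, with Myo7a and A630091E08Rik among them each time. That both stayed was fixed by the rule, since separated groups stay separated with fewer libraries, apart from small changes in scaling. Across both conditions the closest approach of the groups, as the log2 ratio of the lowest control to the highest cKO value, was 0.33 for Myo7a, 0.19 for A630091E08Rik and 0.18 for Asb2. Just outside the rule were Lmtk2, Tgfbr2 and Med15, at -0.03, -0.03 and -0.04, with log2 fold changes between -0.07 and -0.14.

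By edgeR's quasi-likelihood test with adjustment over all tested genes, no gene was called for genotype in NS libraries (0%; 402 at an unadjusted p under 0.05), and 1 in STIM libraries (0.00640%), Asb2. Both Myo7a and A630091E08Rik had an adjusted p of 0.306 there. DESeq2 called 4 genes in NS (0.0256%; 399 at an unadjusted p under 0.05) and 5 in STIM libraries (0.0320%). The 5 included Asb2, Myo7a (adjusted p = 0.00419) and A630091E08Rik (adjusted p = 0.00453). These p-values use the contrasts that chose the genes and are given only to show that the call depends on the tool.

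The counts behind these levels are small. Myo7a had 85, 67 and 84 counts in NS cKO, 109, 115 and 126 in NS control, 67, 108, 63 and 89 in STIM cKO, and 148, 121, 146, 120 and 114 in STIM control libraries. Counting error alone would give a coefficient of variation (CV) of 11.3% in NS cKO, 9.26% in NS control, 11.1% in STIM cKO and 8.78% in STIM control libraries. The observed CVs of the Myo7a CPM values were 10.3%, 4.51%, 15.7% and 9.83% in those groups. For A630091E08Rik the observed CVs were 4.38% in NS cKO, 5.51% in NS control, 17.8% in STIM cKO and 7.92% in STIM control libraries, beside 9.0%, 8.01%, 12.9% and 10.2% from counting. The spread in the STIM cKO group exceeded its counting error for both genes, and the spread in both NS groups was below it. In STIM control libraries it was above counting error for Myo7a and below it for A630091E08Rik. A rule that asks for separated groups favours genes with a small spread, so the small values may follow in part from it.

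On the deposited TPM values, which are scaled for transcript length within each library, Myo7a did not keep its separation. NS cKO libraries had 0.806, 0.786 and 1.56 TPM, against 1.42, 1.92 and 0.662 TPM in NS control libraries, so the lowest value of all was a control library. STIM cKO libraries had 0.759, 1.81, 1.31 and 1.59 TPM, against 2.77, 1.39, 1.93, 1.82 and 1.96 TPM in STIM control libraries. The groups thus overlapped in both conditions on this scale. A630091E08Rik kept its separation. It had 10.1, 10.9 and 10.4 TPM in NS cKO, against 11.1, 12.0 and 12.0 TPM in NS control libraries, and 3.79, 6.12, 3.28 and 7.13 TPM in STIM cKO, against 7.68, 8.52, 8.61, 9.25 and 9.59 TPM in STIM control libraries.

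The ratio of an estimated count to its TPM value, after each library's own scale is removed, is proportional to the effective length that the gene was given in that library. For Myo7a this length ran from 0.628 to 1.99 times its mean, a span of 3.18-fold, which was wider than for 97.3% of the 15022 genes with values above 0 in all libraries (median span 1.14-fold). NS control replicate 3, with the lowest TPM, had the longest implied length. For A630091E08Rik, with its single transcript, the span was 1.03-fold, and for Asb2 1.06-fold. On the TPM scale the rule again gave 3 genes lower in both conditions (0.0192%): Asb2, A630091E08Rik and the pseudogene Rpl9-ps7. On both scales it gave 2 (0.0128%), Asb2 and A630091E08Rik.

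**Figure D2:**
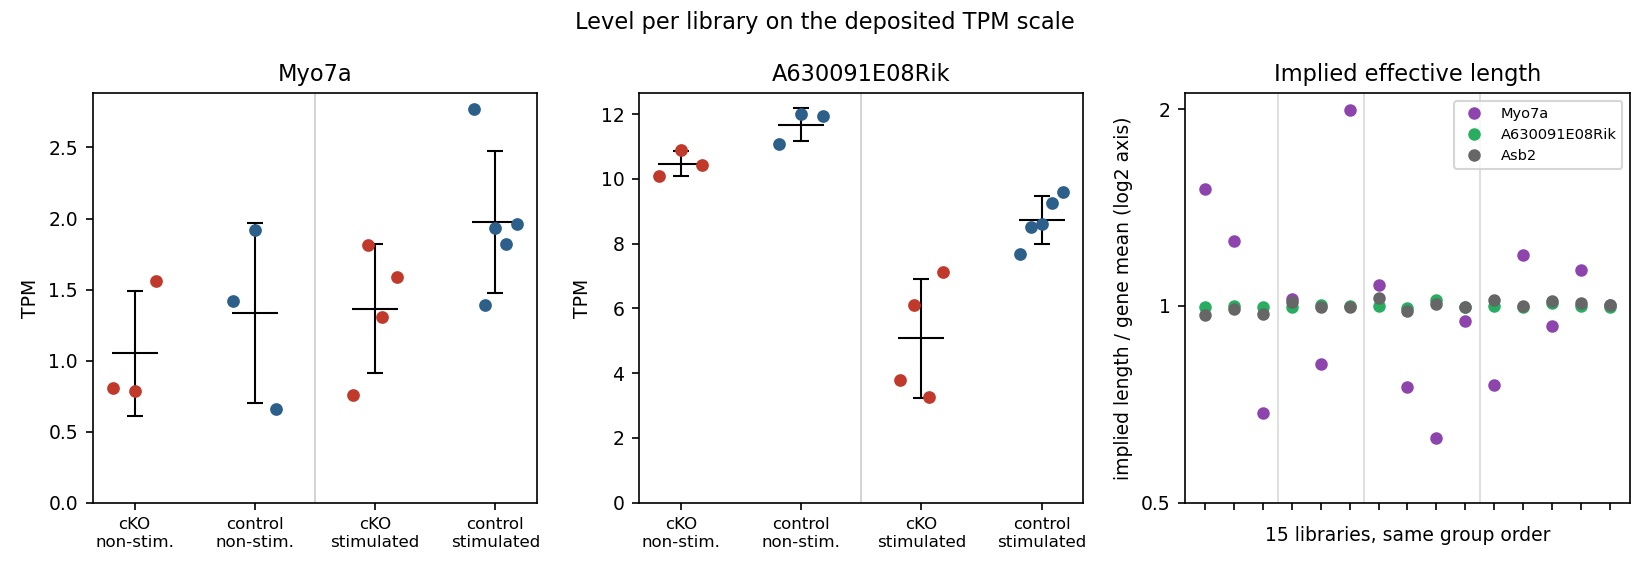
Deposited TPM (y axis) of both genes in each library, with group mean and SD (left and centre), and the effective length implied by count over TPM relative to the gene's mean, on a log2 axis (right; libraries run NS cKO, NS control, STIM cKO, STIM control). The implied length of Myo7a spans 3.18-fold, while those of A630091E08Rik and Asb2 stay within 1.03-fold and 1.06-fold.

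The response to stimulation was not used to choose the genes and was tested. A630091E08Rik fell after stimulation in both genotypes. In cKO cells it averaged 3.05 ± 0.54 CPM in STIM (n = 4) and 6.11 ± 0.27 CPM in NS libraries (n = 3), with no overlap. The log2 fold change was -1.0 ± 0.16 (SE; 95% interval -1.33 to -0.67; edgeR adjusted p = 3.6e-05). In control cells it averaged 5.16 ± 0.41 CPM in STIM (n = 5) and 7.62 ± 0.42 CPM in NS libraries (n = 3), again with no overlap. The log2 fold change was -0.56 ± 0.14 (95% interval -0.86 to -0.26; edgeR adjusted p = 0.0031). Two-sided exact permutation tests gave p = 0.0286 in cKO and 0.0179 in control cells, the smallest each design allows. Genes lower after stimulation were common, 27.1% of tested genes in cKO and 25.2% in control cells, beside 26.7% and 25.4% that were higher. Without the same pair of libraries the fall was -0.95 ± 0.17 in cKO and -0.51 ± 0.16 in control cells (edgeR adjusted p = 0.0002 and 0.0165). In control cells the fall did not pass on the TPM scale (-0.42, limma adjusted p = 0.118, beside an all-gene median of 0.14).

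Myo7a did not pass the test for stimulation in either genotype. It averaged 4.15 ± 0.65 CPM in STIM cKO (n = 4) and 3.89 ± 0.40 CPM in NS cKO libraries (n = 3), and these overlapped. The log2 fold change was 0.09 ± 0.16 (95% interval -0.25 to 0.43; edgeR adjusted p = 0.656; exact permutation p = 0.6). It averaged 6.92 ± 0.68 CPM in STIM control (n = 5) and 5.74 ± 0.26 CPM in NS control libraries (n = 3). Here every STIM value lay above every NS value, with a log2 fold change of 0.27 ± 0.15 (95% interval -0.05 to 0.58; edgeR adjusted p = 0.147; exact permutation p = 0.0536). In cKO and control cells 53.8% and 50.6% of tested genes were called for stimulation. The intervals leave room for a rise or a small fall in each genotype.

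The order of the Myo7a group means was STIM control, NS control, STIM cKO and NS cKO. STIM and NS cKO overlapped, and STIM and NS control did not overlap but missed the threshold. The order for A630091E08Rik was NS control, NS cKO, STIM control and STIM cKO, and no neighbouring pair in that order overlapped, the closest being 5.85 CPM in an NS cKO and 5.8 CPM in a STIM control library. The difference between the 2 stimulation responses, cKO minus control, was -0.44 ± 0.21 for A630091E08Rik (95% interval -0.89 to 0.01; edgeR adjusted p = 0.997) and -0.18 ± 0.22 for Myo7a (-0.64 to 0.29; adjusted p = 0.997). It is built from the same 2 genotype contrasts whose signs chose the genes. By edgeR 0 genes were called for it (0%; 605 at an unadjusted p under 0.05), and by DESeq2 2.

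Both genes lie in a stretch of 35 annotated genes, counted to 10 genes beyond each of them, in which 14 genes were tested. Gene order here is from the GENCODE annotation of an earlier build than the files' GRCm39, so only order is given. No other gene there was lower without overlap in both conditions, and edgeR called no gene there for genotype in either condition. Of the 10 genes that differed without overlap in both conditions in either direction, 3 were on chromosome 7, and all 3 were in this stretch: Myo7a at place 11, A630091E08Rik at place 25 and Gm15506 at place 28. The stretch was drawn around Myo7a and A630091E08Rik, so they lie in it by construction, and only Gm15506 could have lain elsewhere. Chromosome 19 also held 3 of the 10 (1110059E24Rik, Pip5k1b and Gm5518), with 3.36% of the tested genes that could be located against 7.67% on chromosome 7. Chromosome 7 held 39 of the 531 located genes lower in NS cKO libraries and 8 of the 52 lower in STIM cKO libraries, and chromosome 2, with 7.58% of located genes, also held 8 of the 52. The chromosome 7 counts include Myo7a and A630091E08Rik themselves. They are 3.33% (NS) and 0.683% (STIM) of its located tested genes, beside 3.49% and 0.352% of all tested genes. Chromosome 12, which holds Asb2, had the highest share in STIM libraries, 0.919%. These places and shares were seen in the values that chose the genes and were given no test.

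Gm15506 (ENSMUSG00000086477), annotated as a processed transcript on the minus strand, was higher in cKO cells. It was singled out after its values were seen. NS cKO libraries had 6.52, 8.23 and 6.08 CPM, against 4.28, 5.12 and 4.76 CPM in NS control libraries. STIM cKO libraries had 4.03, 6.85, 3.8 and 5.75 CPM, against 2.23, 2.38, 3.30, 3.23 and 2.83 CPM in STIM control libraries. The log2 fold changes were 0.55 ± 0.22 in NS and 0.88 ± 0.19 in STIM libraries (SE). The groups did not overlap in either condition, and the direction was opposite to that of Myo7a and A630091E08Rik. On the TPM scale they overlapped in both conditions (3.64 to 6.24 TPM in NS cKO and 3.72 to 6.0 TPM in NS control libraries, 2.26 to 7.10 TPM in STIM cKO and 2.06 to 3.96 TPM in STIM control libraries), and its implied length spanned 2.20-fold.

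The 3 tested genes between Myo7a and A630091E08Rik overlapped between genotypes in both conditions. Capn5, a calpain protease, had log2 fold changes of -0.06 ± 0.22 in NS and -0.38 ± 0.20 in STIM libraries, and Acer3, an alkaline ceramidase, 0.05 ± 0.14 and 0.08 ± 0.12. Lrrc32, which encodes GARP, the surface anchor of latent TGF-beta, had -0.34 ± 0.24 and -0.61 ± 0.24. Next to A630091E08Rik, the chromatin factor gene Emsy had -0.15 ± 0.12 and -0.15 ± 0.10. Thap12 was lower without overlap in NS libraries (-0.34 ± 0.10) and had 0.09 ± 0.08 in STIM libraries, where its groups overlapped. Of the 12 tested neighbours 0 were called for genotype by edgeR in either condition (0% of all genes in NS and 0.00640% in STIM libraries).

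**Figure D3:**
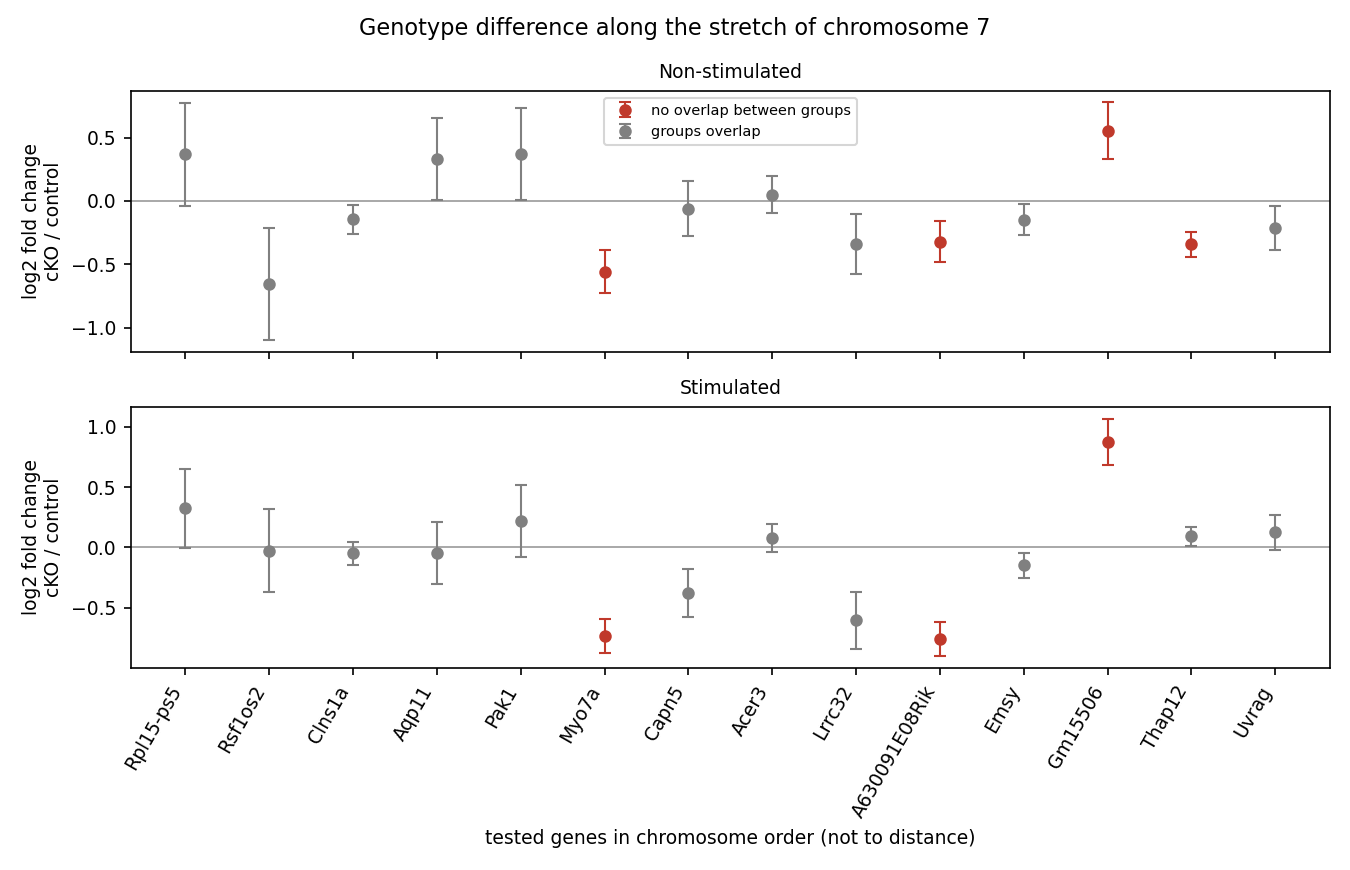
Log2 fold change of cKO over control (y axis, with SE) for the 14 tested genes of the stretch, in chromosome order and not to distance, without stimulation (top) and with it (bottom); red points are genes whose groups did not overlap. Myo7a and A630091E08Rik lie below 0 and Gm15506 above 0 in both panels, and Thap12 is red in the top panel only.

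Among unconventional myosins Myo7a was a minor member in these cells. Its mean was 1.5 TPM, rank 12 of the 24 listed genes with a row, above 24.0% of all tested genes; Myo1g led at 97.2 TPM, followed by Myo6 at 74.4 and Myo10 at 32.9 TPM. Myo7b, its class VII paralog, was at 0.00182 TPM and was not tested. A630091E08Rik averaged 8.70 TPM, above 51.9% of tested genes. Of the 18 unconventional myosins tested, 0 were called for genotype by edgeR in either condition. Their median log2 fold change was 0.06 in NS (all genes 0.00) and -0.04 in STIM libraries (all genes 0.00).

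Stimulation moved other myosins in both directions. In cKO cells 6 rose and 6 fell (medians 0.00 for the list and -0.01 for all genes), and in control cells 6 rose and 4 fell (0.10 and 0.00). With 18 tested, these counts stand beside 26.7% of all tested genes that rose and 27.1% that fell in cKO cells, and 25.4% and 25.2% in control cells. Myo10, a filopodial motor, rose by a log2 fold change of 2.57 ± 0.16 in cKO and 2.31 ± 0.15 in control cells, and Myo9a by 1.38 ± 0.13 and 1.46 ± 0.12. The mitochondrial myosin Myo19 rose by 1.16 ± 0.15 and 1.27 ± 0.15. Myo6, which moves towards the minus end of actin, fell, with log2 fold changes of -2.54 ± 0.25 in cKO and -2.59 ± 0.23 in control cells, as did the leukocyte class I myosin Myo1f (-2.57 ± 0.22 and -2.48 ± 0.20). The other called members were Myo16, Myo1d and Myo5a, which rose in both genotypes, Myo5b and Myo3b, which fell in both, and Myo1h and Myo9b, called as lower in cKO cells. For Myo1h and Myo9b the difference between genotypes did not pass, as 0 genes were called for it. Myo7a, at 0.09 and 0.27, was among the 6 members called in neither genotype, with Myo1g, Myo1c, Myo15, Myo18a and Myo1e.

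**Figure D4:**
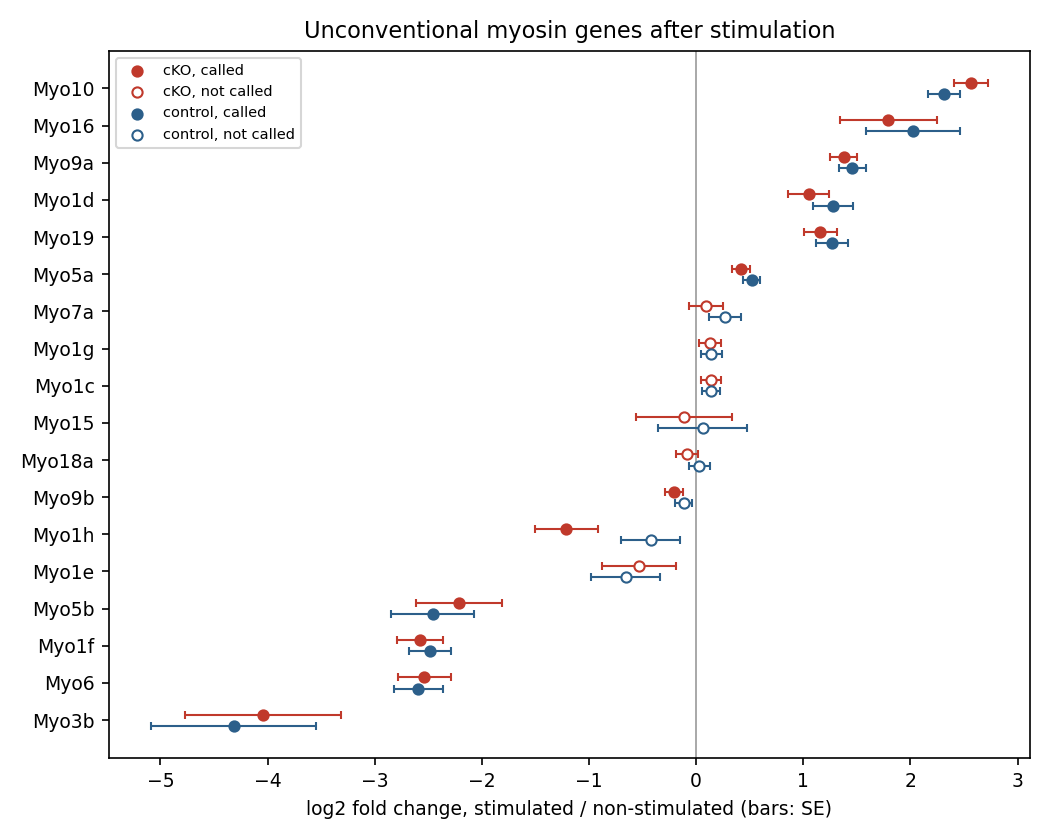
Log2 fold change of STIM over NS (x axis, with SE) for the 18 tested unconventional myosins in cKO (red) and control (blue) cells; filled points passed the edgeR test. Myo7a lies near 0 with open points, between Myo10 at 2.57 and 2.31 and Myo3b at the low end.

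Class VII myosins work with the Usher proteins, in hair cells with MYO7A, and with the intermicrovillar complex, in brush borders with MYO7B. Most of their genes were too low to be tested. Of 15 genes of the Usher and intermicrovillar complexes 3 were tested. Cdh23, the cadherin of hair cell tip links, rose after stimulation by 0.65 ± 0.27 in cKO and 1.19 ± 0.27 in control cells, and the scaffold gene Whrn by 1.36 ± 0.30 and 1.71 ± 0.29, while the actin bundler Espn fell (-0.39 ± 0.15 and -0.36 ± 0.14; list medians 0.65 and 1.19, all genes -0.01 and 0.00). Of 9 other reported partners and light chains 7 were tested; Calm3, Twf2 and Vezt fell in both genotypes and 0 rose (list medians 0.02 and -0.13). Calm3, a calmodulin gene, changed by -0.81 ± 0.13 in cKO and -0.82 ± 0.13 in control cells. Of 7 non-muscle myosin II chains 5 were tested; Myh10 and Myl12a rose and Myh9 and Myl12b fell in both genotypes (list medians -0.48 and -0.46). These small counts stand beside the same shares of all tested genes, 26.7% higher and 27.1% lower in cKO and 25.4% and 25.2% in control cells, and nothing particular to the lists is read from them. For genotype 0 members of these lists were called in either condition by edgeR.

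Likeness was measured as Pearson's r of log2(CPM + 0.5) over the 15 libraries, which share depth and the large stimulation difference. Both genes were also chosen for being lower in cKO libraries, as the targeted gene Asb2 was. Their r with Asb2 over the 15 libraries therefore follows in part from that choice. For Myo7a the 5 most similar tested genes were Gm50438 (0.75), Gm42791 (0.70), Asb2 (0.69), Gm15344 (0.67) and Gm8652 (0.66). For A630091E08Rik they were the T cell receptor segment Trav19 (0.89), Gm26771 (0.87), Fam172a (0.86), the beta-arrestin gene Arrb1 (0.86) and Gm37266 (0.85), with Asb2 at rank 232 (0.77). The 2 genes were not close to each other, with r = 0.38, which placed A630091E08Rik at rank 823 for Myo7a and Myo7a at rank 5439 for A630091E08Rik. Arrb1 fell after stimulation as A630091E08Rik did, with log2 fold changes of -0.88 ± 0.14 in cKO and -0.90 ± 0.13 in control cells. With the group means removed, the highest were Gm15675 (0.84), Gm35315 (0.83), Bclaf1 (0.82), Ylpm1 (0.82) and Wdr89 (0.80) for Myo7a, and Gm42732 (0.85), Gm37160 (0.84), H2-Bl (0.82), A930007I19Rik (0.80) and Gm37598 (0.79) for A630091E08Rik. Levels of the genes named here differed widely. Group means were 0.08 to 0.58 CPM for H2-Bl, 0.30 to 1.02 for Gm15675 and 0 to 0.81 for Gm42791, against 361 to 385 for Bclaf1. As the highest among all tested genes, these r were given no test. Asb2 was then at -0.41 with Myo7a and 0.19 with A630091E08Rik, and the 2 genes were at 0.45 with each other.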

How the data were processed

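RNA was sequenced from 15 mouse Th2 libraries made with a stranded total RNA kit with ribosomal RNA depletion, per the labels' protocols. The authors deposited estimated counts per gene, not scaled between libraries, and TPM values scaled for length within each library. The genome GRCm39 and the tools Salmon 1.10.1, STAR 2.7.9a and cutadapt 3.4 are named, per the submitters' processing notes; the annotation release is not given in the sources used here.

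Estimated counts were rounded to whole numbers. R 4.3.3 and edgeR 4.0.16 were used: filterByExpr kept 15619 genes, libraries were scaled by trimmed mean of M-values, and a robust quasi-likelihood model with 1 mean per group was fitted to all 15 libraries and tested two-sided; p-values were adjusted over those genes by Benjamini-Hochberg, with a threshold of 0.05. All groups share 1 estimate of the spread. CPM uses the scaled library sizes. The mean log2 CPM of a gene was compared between groups by exact permutation tests over the libraries. Totals of 17.1 to 24.2 M counts limit the precision at these levels, and counting error covers counting only, since reads were not tied to single molecules by identifiers. As the labels do not say that libraries are separate cultures or animals, p-values set a difference against the spread between these libraries only. If libraries shared an animal or culture, that spread could be too small, and so could the p-values. No 2 libraries of a group agreed within sampling noise (chi-square per degree of freedom 11.7 to 61.0). The fit was tested on simulated data.

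The genes, gene lists, tests and alternatives were chosen with earlier results of these data known. Genes named beside Myo7a and A630091E08Rik are Asb2, the 5 most similar genes by each measure, the 10 annotated neighbours on each side, called members of fixed lists, and the genes sharing or just outside the rule; any other was chosen after its values were seen. Alternatives were DESeq2 1.42.0, limma 3.58.1 on log2 TPM plus 0.1 or 1, relative log expression size factors, other filters, only the groups compared, a replicate block, and leaving out libraries. RefSeq promoters (GRCm38.p6) and GENCODE gene order were used for sequence and order only.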

Additional observations from a re-analysis of the deposited data

How the results depend on the processing

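No alternative reversed the direction of Myo7a or A630091E08Rik in any of the 5 comparisons. In the genotype comparisons the rule that chose the genes all but fixed the direction on counts, also with 1 library left out. The interaction is built from those same comparisons. On log2 TPM plus 0.1 and plus 1, the genotype difference of Myo7a was -0.27 and -0.17 in NS and -0.53 and -0.34 in STIM libraries, and that of A630091E08Rik -0.16 and -0.14 in NS libraries. The TPM scale moved the all-gene median in NS libraries by 0.15 and 0.12; relative to it Myo7a was at -0.42 and -0.29, and A630091E08Rik at -0.30 and -0.26. In STIM libraries, with medians of -0.07 and -0.05, Myo7a was at -0.46 and -0.29 relative to it. The fall of A630091E08Rik after stimulation in control cells did not pass on TPM (-0.42 and -0.38; limma adjusted p = 0.118 and 0.101; all-gene medians 0.14 and 0.11), and adjusted p ran from 0.00051 to 0.118 over 10 alternatives. Leaving out 1 library at a time, it stayed between -0.59 and -0.51 and called, as did the fall in cKO cells (-1.08 to -0.91); the genotype difference was -0.64 to -0.50 (NS) and -0.80 to -0.63 (STIM) for Myo7a, and -0.35 to -0.28 and -0.86 to -0.67 for A630091E08Rik.

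Genes called for genotype in NS libraries numbered 4 with DESeq2, 1 without a filter, 3 on TPM plus 1, 1 without STIM cKO replicate 3 and NS control replicate 3 (left out together, chosen after seeing the data), and 0 to 1 leaving out 1 library (1 without NS control replicate 3). In STIM libraries DESeq2 called 5. For the interaction DESeq2 called 2, limma on TPM plus 1 called 2 and the replicate block within genotype 1. Genes lower without overlap in both conditions numbered 5 without a filter, 10 without those 2 libraries and 3 to 7 leaving out 1 library; in NS libraries 135 on TPM, 1200 without the 2 libraries and 537 to 1947; in STIM libraries 86 without a filter, 34 on TPM, 135 without the 2 libraries and 58 to 172. Fewer libraries to separate raises these counts by construction.

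Same-numbered libraries did not all deviate together (r from -0.28 to 0.25 over all pairs; 0.09, 0.11 and 0.14 for the NS and STIM pairs of cKO replicates 1, 2 and 3), and the labels do not say what a number marks, so they were not treated as pairs. With the replicate block A630091E08Rik was at -1.04 and -0.60 after stimulation (cKO and control; edgeR adjusted p = 0.00016 and 0.0069) and Myo7a at 0.07 and 0.26; the block changed no call of either gene. At 42 to 187 counts a library, small differences in either gene were not detectable.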
